A study of Mus musculus with 2 samples.

Results

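The NRF2 antioxidant response was followed in mouse aortic perivascular cells (PCs) through 10 genes. These were chosen by name from general knowledge, with earlier results of these data known. They are the transcription factor gene Nfe2l2, which encodes NRF2, its sensor Keap1, and 8 genes that NRF2 is known to drive, Hmox1, Nqo1, Gclc, Gclm, Txnrd1, Srxn1, Slc7a11 and Gstm1. All 10 were found among the 20211 gene symbols measured, each on 1 row of the table, so no averaging over repeated symbols touched them.

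RNA sequencing compared primary PCs of wild-type (WT) mice with PCs of Kai1 knockout (Kai1-/-) mice, both of C57BL/6 background, to ask what the loss of KAI1, a membrane protein of the tetraspanin family encoded by Cd82, does to these cells. Each genotype had 1 library of total RNA from cells of the aorta grown in DMEM with fetal bovine serum, without a further treatment, and the labels and the methods give different serum percentages for them. Each gene had 1 RPKM per library, which is its reads scaled by transcript length and by the mapped reads of the library, so levels of different genes are on a scale per length. The methods describe purchased C57BL/6 mice as adults of either sex, and the number and age of the animals behind each culture and the kind of knockout allele were not found in the sources used here.

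No genotype had a replicate library, so no difference below has a replicate check or a p-value, and each difference includes any between animals, cultures and library preparations. By the steps between low RPKM values, the WT library held about 29500000 reads and the Kai1-/- library about 26600000. The targeted gene Cd82 was at 12.8 RPKM in WT PCs and at 2.62 in Kai1-/- PCs. The 4 Y-linked genes examined were between 0.479 and 6.56 RPKM in the WT library and were listed at 0 in the Kai1-/- library, so the sex of the source animals and the genotype cannot be told apart. Ribosomal protein genes took 37.7% of the RPKM sum in WT PCs and 49.1% in Kai1-/- PCs. Of 13 perivascular markers, Acta2, Tagln, Pdgfrb and Cspg4 were present in both libraries, and 11 of the 13 were lower in Kai1-/-. A level of at least 1 RPKM was reached by 9 of the 13 in WT and by 5 in Kai1-/-. Mcam was at 4.90 RPKM in WT and at 0.264 in Kai1-/-, and Myh11 was at 2.96 and 0.346. The summed level of the list was 4646 RPKM in WT and 2978 in Kai1-/-, of which Acta2 made up 3823 and 2580. The pericyte markers Rgs5, Kcnj8 and Abcc9 were under 1 RPKM in both libraries, and so were all 9 endothelial markers. From WT to Kai1-/-, Rgs5 (0.0630 and 0.233) and Kcnj8 (0 and 0.791) were higher, and Abcc9 (0.0411 and 0.0303) was lower. The 8 fibroblast markers were all lower in the Kai1-/- library, with a summed level of 3120 RPKM in WT and 1490 in Kai1-/-.

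NRF2 is held at a low level by KEAP1, which hands it to a CUL3 ubiquitin ligase for breakdown. Electrophiles and oxidants modify cysteines of KEAP1, upon which NRF2 builds up, enters the nucleus, pairs with a small MAF protein and binds antioxidant response elements. Its targets make glutathione and thioredoxin systems, reduce quinones and break down heme, and in the vessel wall they are studied mainly for protection against oxidative injury. Because NRF2 is set mostly through its protein, the RNA level of Nfe2l2 is not a measure of its activity.

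Antioxidant response elements carry the core TGACNNNGC, where N is any base. This core was searched on both strands of the RefSeq promoter windows of GRCm38.p6, each from 250 bases before to 50 bases after a transcript start. It stood in a window of 3781 of 27025 genes, or 14.0%. Of the 8 genes of the NRF2 set with a window in the table, 4 held it, namely Nfe2l2, Gclm, Txnrd1 and Srxn1. Hmox1 and Gclc had no window, and elements outside the windows were not searched. A match of letters is a description and not a measured binding site. The stricter form TGACTCAGC, which is itself a case of the core, stood in windows of 136 genes, or 0.503%, and in none of the 8. Among the pathway genes of the lists described further on, 4 of 147 with a window held it, or 2.72%, namely Htatip2, Me1, Mt2 and Prdx1. The core stood in windows of 30 of these 147, or 20.4%. The sequences are shown for the elements upstream of genes whose levels are followed here, so that the core can be read in its surroundings, and for the peroxiredoxin gene Prdx1 as 1 example of the stricter form. Each runs in the direction of its gene, 5′ to 3′, with the 9 bases of the element in capitals. On the strand opposite to the gene, the core reads as its reverse complement.
Nfe2l2 promoter: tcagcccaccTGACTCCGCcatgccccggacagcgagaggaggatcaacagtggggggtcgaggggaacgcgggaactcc
Gclm promoter: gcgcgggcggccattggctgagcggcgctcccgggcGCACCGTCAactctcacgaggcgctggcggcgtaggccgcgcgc
Txnrd1 promoter: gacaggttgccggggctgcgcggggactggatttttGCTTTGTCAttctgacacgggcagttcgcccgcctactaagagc
Prdx1 promoter: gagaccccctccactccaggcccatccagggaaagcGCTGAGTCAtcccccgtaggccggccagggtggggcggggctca

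The positions of these stretches on NCBI37 (mm9), the build of the expression values, came from their single exact match there. The Nfe2l2 stretch was at chr2:75542891-75542970 on the minus strand and overlapped an exon of the neighbouring gene E030042O20Rik, and its element began 240 bases before the transcript start. The Gclm stretch was at chr3:121948305-121948384 on the plus strand with no annotated gene over it, and its element began 134 bases before the start on the opposite strand. The Txnrd1 stretch was at chr10:82321823-82321902 on the plus strand, inside the Txnrd1 locus but outside its exons, with the element 92 bases before 1 of the gene's listed starts. The Prdx1 stretch was at chr4:116358035-116358114 on the plus strand, between genes, with the element 133 bases before the start. In Srxn1 the core lay 29 to 37 bases after the start, in the transcribed part.

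Of the 10 genes, 9 averaged at least 1 RPKM over the libraries, and Slc7a11 did not. A gene is called lower or higher by more than 2-fold from the log2 ratio of Kai1-/- to WT after adding 0.1 RPKM to each value, which understates differences of low genes. By this rule 2 of the 9 genes were lower in Kai1-/- PCs, the heme oxygenase gene Hmox1 and the glutathione synthesis gene Gclm, and 0 were higher. The background over all 10068 genes that averaged at least 1 RPKM was 7.81% lower and 7.98% higher. Of the 10 genes, 8 had a log2 ratio below 0, against 44.9% of all genes, and their median log2 ratio was -0.52, where that of all genes was 0.08. Keap1 and Gclc had ratios above 0. These counts depend on the scaling of the libraries, because with RPKM sums made equal 1816 of all genes were lower and 286 higher, against 786 and 803 with the values as deposited, and 5 of the 9 genes were then lower.

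**Figure D1:**
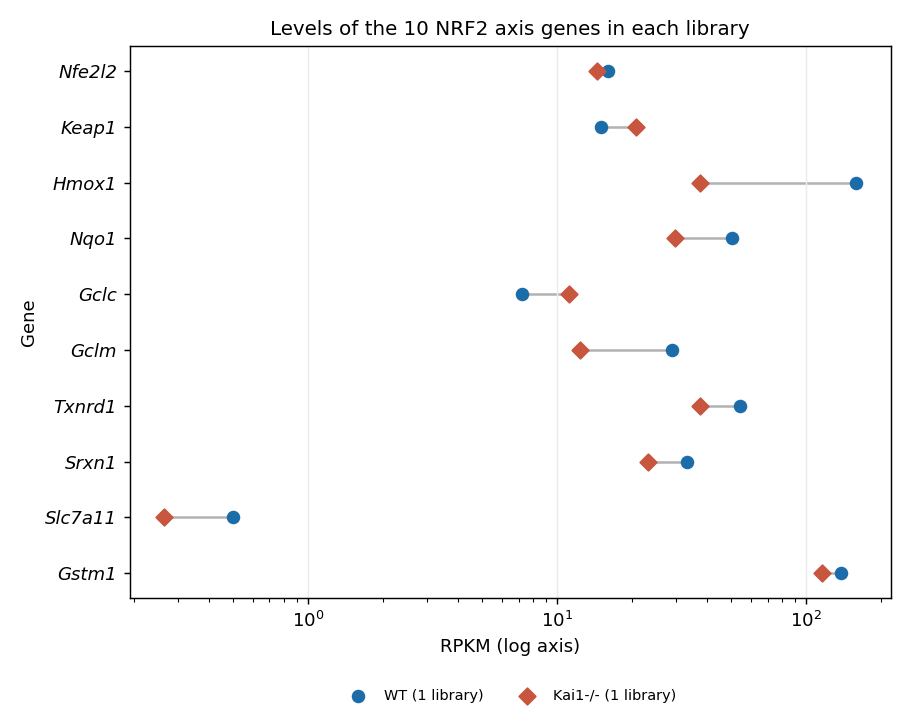
RPKM of the 10 genes on a log axis, with a circle for the WT library and a diamond for the Kai1-/- library (1 library each). Hmox1 and Gstm1 had like levels in WT PCs, 158 and 138, and lay apart in Kai1-/- PCs, at 37.4 and 116, while Slc7a11 stood under 1 in both.

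The sensor and its factor came first. Nfe2l2, on chromosome 2 from 75513570 to 75542698 (minus strand), was at 16.0 RPKM in WT PCs and at 14.4 in Kai1-/- PCs, with a log2 ratio of -0.15. Keap1, on chromosome 9 from 21034174 to 21043776 (minus strand), had 15.0 in WT and 20.8 in Kai1-/- PCs, with a log2 ratio of 0.46, which was -0.02 with equal RPKM sums and -0.03 with scaling to Gapdh. Neither gene passed 2-fold. Because both were measured per length, their levels can be set side by side, and Keap1 stood at 0.937 of the level of Nfe2l2 in WT PCs and at 1.44 times its level in Kai1-/- PCs. Nfe2l2 lies on the chromosome of Cd82, 17.7 Mb away.

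The list of 19 NRF2 regulators held 16 genes above the filter, with a median log2 ratio of -0.38, against 0.08 for all genes. Of these 16, 2 were more than 2-fold lower and 0 higher, against 7.81% and 7.98% of all genes. Sqstm1, whose product p62 can draw KEAP1 into autophagy, was at 320 RPKM in WT and at 142 in Kai1-/- PCs, with a log2 ratio of -1.17. Nfe2l1, which encodes the related factor NRF1, had 53.8 and 26.8, 2.01-fold lower. The ubiquitin ligase scaffold Cul3 had 18.2 and 16.6. Among the small MAF partners, Mafg had 11.3 and 6.35, Maff had 30.9 and 20.7, and Mafk had 15.6 and 12.5, so that all 3 were lower in Kai1-/- PCs without passing 2-fold. Bach1, a repressor that competes with NRF2 for the same elements and is released by heme, was low in both, at 1.50 and 1.05. With scaling to Gapdh, the shift of -0.50 placed all 16 genes of this list below 0, and the median of all genes at -0.41.

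Glutathione synthesis held both a gene past 2-fold on the lower side and the gene with the highest ratio of the 10. Its first step joins glutamate and cysteine and is carried out by an enzyme with a catalytic subunit, GCLC, and a modifier subunit, GCLM, that raises its efficiency. Gclm, on chromosome 3 from 121948475 to 121972902 (plus strand), was at 28.8 RPKM in WT PCs and at 12.4 in Kai1-/- PCs, 2.33-fold lower, with a log2 ratio of -1.21. The estimated reads behind these values were 3948 and 1530, which gives a 95% interval from -1.30 to -1.13 for counting error only. Gclc, on chromosome 9 from 77602342 to 77642292 (plus strand), had 7.20 in WT and 11.1 in Kai1-/- PCs, with a log2 ratio of 0.62 that did not pass 2-fold and stayed above 0 under every scaling tried (lowest 0.12). Per length, Gclm RNA was therefore 4.01 times as abundant as Gclc RNA in WT PCs and 1.12 times in Kai1-/- PCs, a difference of -1.84 on the log2 scale that does not depend on how the libraries are scaled. Only 5.6% of all genes had a lower ratio than Gclm, and 19.0% had a higher ratio than Gclc.

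Cysteine for this step enters cells as cystine through an exchanger made of the light chain SLC7A11 and the heavy chain SLC3A2. Slc7a11, on chromosome 3 from 50168858 to 50247535 (minus strand), was at 0.498 RPKM in WT PCs and at 0.265 in Kai1-/- PCs, below the filter, so no call was made. About 132 and 64 reads lay behind these values, and the log2 ratio without an added value was -0.91 with a counting interval from -1.35 to -0.45. Slc3a2, which also serves other amino acid transporters, had 47.6 and 54.1, so its RNA was 95.6 times that of Slc7a11 in WT and 204 times in Kai1-/- PCs, per length.

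Of the 16 genes for glutathione synthesis and recycling, 12 were above the filter. Of these 12, 2 were more than 2-fold lower and 1 higher, against 7.81% and 7.98% of all genes. Their median log2 ratio was 0.16 (-0.34 with scaling to Gapdh), against 0.08 (-0.41) for all genes. Besides Gclm, the lower gene was Chac1, which breaks glutathione down in the cytosol and is also a gene of the ATF4 stress response, at 78.9 in WT and 17.4 in Kai1-/- PCs, with a log2 ratio of -2.18. Both genes were lower in Kai1-/- PCs, while their products act on glutathione in opposite ways. The higher gene was Ggt7, a member of the gamma-glutamyltransferase family, with 1.51 and 4.49. Glutathione synthetase, Gss, had 40.4 and 30.6, and glutathione reductase, Gsr, had 8.63 and 13.8, and neither passed 2-fold.

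**Figure D2:**
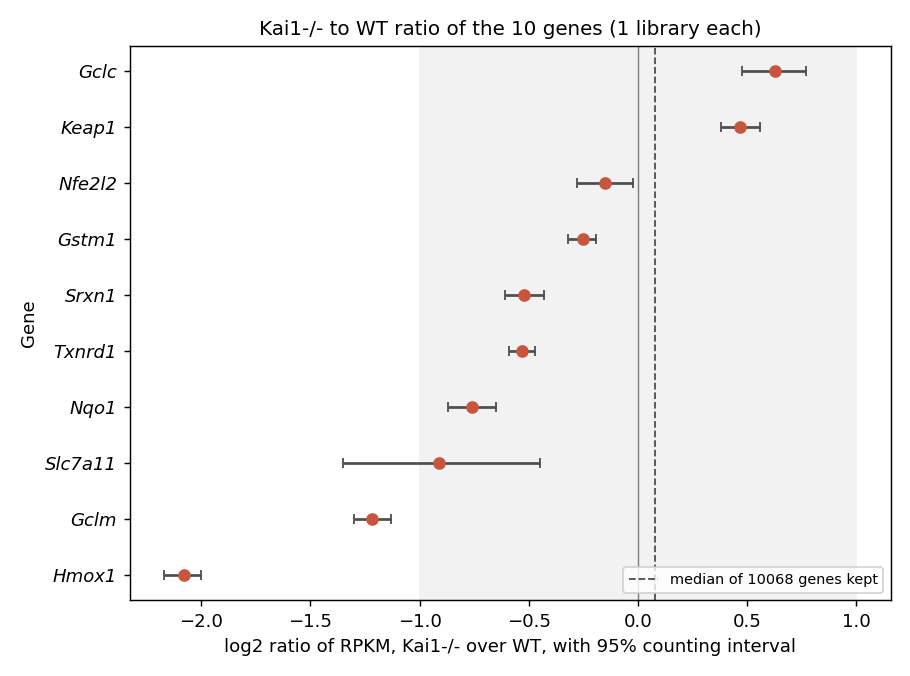
The log2 ratio of Kai1-/- to WT for the 10 genes, computed without an added value, with bars for the 95% counting interval from estimated reads (1 library each), a dashed line for the median of all genes kept at 0.08 and a grey band for differences within 2-fold. Hmox1 and Gclm lie outside the band on the lower side, and Gclc and Keap1 lie above 0, Keap1 only with the values as deposited or with scalings other than equal RPKM sums and Gapdh.

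Thioredoxin reductase and sulfiredoxin had nearly the same ratio. Txnrd1 encodes the cytosolic reductase that keeps thioredoxin reduced with NADPH, and Srxn1 encodes the enzyme that repairs peroxiredoxins after their cysteine has been overoxidised. Txnrd1, on chromosome 10 from 82296696 to 82360469 (plus strand), was at 53.9 RPKM in WT PCs and at 37.3 in Kai1-/- PCs, with a log2 ratio of -0.53. Srxn1, on chromosome 2 from 151931252 to 151937112 (plus strand) and 58.6 Mb from Cd82, had 33.2 and 23.1, a log2 ratio of -0.52. Neither was past 2-fold with the values as deposited. With scaling to Gapdh their ratios were -1.03 and -1.02 and both passed, as they did with equal RPKM sums.

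These enzymes act on thioredoxin and on peroxiredoxins, whose RNA levels follow. The cytosolic thioredoxin gene Txn1 was at 261 RPKM in WT and at 376 in Kai1-/- PCs, with a log2 ratio of 0.53, and Prdx1, a peroxiredoxin that removes hydrogen peroxide, had 178 and 320, a log2 ratio of 0.85. Neither passed 2-fold, and with scaling to Gapdh the ratio of Txn1 was 0.03. Of the 50-base stretches of Prdx1, 9.49% also occur in another annotated gene. All 17 genes of the thioredoxin and peroxiredoxin list were above the filter. Their median log2 ratio was 0.34 (-0.16 with scaling to Gapdh), against 0.08 (-0.41) for all genes. Among them, 1 was more than 2-fold lower and 2 higher, against 7.81% and 7.98% of all genes. The lower gene was Prdx6, a peroxiredoxin that uses glutathione instead of thioredoxin, with 154 and 68.9, a log2 ratio of -1.16. The higher genes were Txnrd2, the mitochondrial thioredoxin reductase, with 4.02 and 8.28, and Prdx3, a mitochondrial peroxiredoxin, with 9.37 and 18.9. Both higher calls were at the edge, at 206% and 202% of the WT level, and were lost under each of the 5 other scalings.

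NAD(P)H quinone dehydrogenase and a glutathione transferase were the detoxification genes of the set. Nqo1, which reduces quinones by a direct route that avoids semiquinone radicals, lies on chromosome 8 from 109912125 to 109927106 (minus strand) and was at 50.1 RPKM in WT PCs and at 29.6 in Kai1-/- PCs. Its log2 ratio was -0.76, with a counting interval from -0.87 to -0.65, and 11.9% of all genes had a lower ratio. It did not pass 2-fold as deposited and did so with equal RPKM sums, at -1.24. Gstm1, which joins glutathione to electrophiles, lies on chromosome 3 from 107815173 to 107820891 (minus strand) and had 138 and 116, a log2 ratio of -0.25. Of its 50-base stretches, 14.8% also occur in Gstm2, Gstm3 or a Gstm2 pseudogene, so reads could be split between these copies and its value is uncertain.

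Of the 20 glutathione transferases above the filter, 4 were more than 2-fold lower, against 7.81% of all genes, and 0 were higher. A log2 ratio below 0 was found for 16 of the 20, against 44.9% of all genes, and the list median was -0.26, against 0.08. With scaling to Gapdh, 7 were lower, against 18.4% of all genes, and the list median was -0.75, against -0.41 for all genes. Gstt2 was at 7.11 RPKM in WT and at 0.609 in Kai1-/- PCs, with a log2 ratio of -3.35 on about 245 and 19 reads. Gstm4 had 7.09 and 3.46, with a counting interval from -1.33 to -0.74. Gsto2 had 1.89 and 0.780 on about 64 and 24 reads, with an interval from -2.01 to -0.57. Both intervals cross the 2-fold line, so the calls of Gstm4 and Gsto2 are uncertain. Gsta1 had 2.02 and 0.193, on about 40 and 3 reads, with 89.7% of its stretches shared with close copies, so it is uncertain. The most abundant members did not pass 2-fold, since Gstp1 had 435 and 381, Gstm2 had 240 and 185, and Gstm5 had 131 and 87.6. Most of the Gstp1 sequence, 67.5%, is shared with Gstp2.

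Of the other detoxification genes, 20 were above the filter, with a median log2 ratio of -0.17, against 0.08 for all genes. Of these 20, 2 were more than 2-fold lower and 3 higher, against 7.81% and 7.98% of all genes. With scaling to Gapdh, 6 were lower and 1 higher, with a median of -0.67. Of all genes, 18.4% were then lower and 2.76% higher, with a median of -0.41. Aldh3a1, which oxidises aldehydes and is known as a target of the aryl hydrocarbon receptor, was at 3.93 RPKM in WT and at 57.8 in Kai1-/- PCs, with a log2 ratio of 3.85, and 0.1% of all genes had a higher ratio. Akr1c14, a ketosteroid reductase of the aldo-keto reductase family, had 0.602 and 1.65, and the carboxylesterase gene Ces2g had 2.88 and 6.29. Ugdh, which makes the glucuronic acid donor for conjugation, had 41.8 and 19.9. Akr1c13 had 2.56 in WT and was listed at 0 in Kai1-/- PCs, and 29.5% of its stretches are shared with Akr1c12, which had 0.357 and 0.946. The calls of Aldh3a1 and Ugdh were kept under all 5 other scalings, and those of Akr1c14 and Ces2g were not. All 5 scalings lower the Kai1-/- values, so the lower call of Ugdh could not be lost.

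Hmox1 had the lowest ratio of the 10 genes. It encodes heme oxygenase 1, the inducible enzyme that opens the heme ring to biliverdin, iron and carbon monoxide, and it is a classical target of both NRF2 and the repressor BACH1. Hmox1, on chromosome 8 from 77617490 to 77624495 (plus strand), was at 158 RPKM in WT PCs and at 37.4 in Kai1-/- PCs, 4.24-fold lower, with a log2 ratio of -2.08. The estimated reads were 6563 and 1397, with a counting interval from -2.17 to -2.00. It ranked 584 among all symbols in WT PCs and 2002 in Kai1-/- PCs, and 2.1% of the genes kept had a lower ratio. Under the other scalings, added values and treatment of repeated symbols, the ratio lay between -2.58 and -2.05.

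Macrophages are rich in heme oxygenase 1, so their markers are given beside it. Of 9 macrophage markers listed, 6 were lower in the Kai1-/- library, and their summed level was 16.7 RPKM in WT and 4.47 in Kai1-/-. Csf1r, the receptor for macrophage colony-stimulating factor, made up most of this, with 11.7 and 2.66. Lyz2 had 3.44 and 1.09, and Cd68 had 1.17 and 0.464. The markers Emr1 and Marco were listed at 0 in both libraries, Cd163 was at 0.256 and 0.240, and the leukocyte gene Ptprc was at 0.0407 and 0.00697. The part of these cells in the Hmox1 difference was not tested, and in bulk RNA fewer cells of a type cannot be told apart from less RNA per cell.

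Hmox2 encodes the constitutive isoform of the enzyme. It was at 42.4 RPKM in WT and at 56.2 in Kai1-/- PCs, so Hmox1 RNA stood at 3.73 times the level of Hmox2 RNA in WT PCs and at 0.664 of it in Kai1-/- PCs, per length. Of 11 heme and iron genes above the filter, 3 were more than 2-fold lower and 2 higher, against 7.81% and 7.98% of all genes. Their median log2 ratio was -0.20 (-0.70 with scaling to Gapdh), against 0.08 (-0.41) for all genes. Ftl1, the light chain of the iron store ferritin, was among the most abundant RNAs of the cells and had 4264 and 2002, a log2 ratio of -1.09, but 74.6% of its stretches are shared with a pseudogene. Slc48a1, which carries heme out of endosomes, had 158 and 78.7, 2.01-fold lower and just past the 2-fold line. Tfrc, the transferrin receptor through which iron enters, was higher, with 3.06 and 8.41, a log2 ratio of 1.43. Blvra, which turns biliverdin into bilirubin, had 26.8 and 54.1, a log2 ratio of 1.01, whereas the second reductase Blvrb had 132 and 114. The higher call of Tfrc was lost with equal RPKM sums and with Gapdh, where its ratio was 0.93, and that of Blvra was lost under each of the 5 other scalings. The lower calls of Hmox1, Ftl1 and Slc48a1 were kept under all 5 other scalings, which all lower the Kai1-/- values and so could not remove them.

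**Figure D3:**
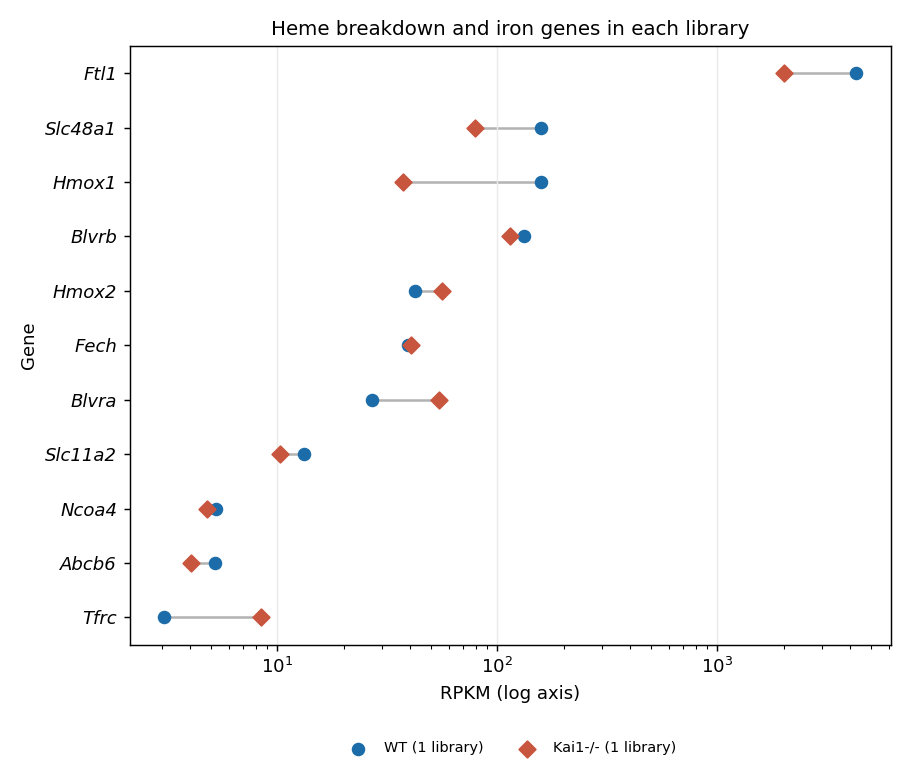
RPKM on a log axis of the 11 heme and iron genes above the filter, with a circle for WT and a diamond for Kai1-/- (1 library each). Hmox1 lay above Hmox2 in WT PCs (158 against 42.4) and below it in Kai1-/- PCs (37.4 against 56.2), and Tfrc and Blvra were higher in Kai1-/- PCs where Ftl1 and Slc48a1 were lower.

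NADPH is the reductant that glutathione reductase, thioredoxin reductase and NQO1 draw on. All 14 genes of this list were above the filter, with 1 more than 2-fold lower and 2 higher, against 7.81% and 7.98% of all genes. Their median log2 ratio was 0.26 (-0.24 with scaling to Gapdh), against 0.08 (-0.41) for all genes. G6pdx, the entry enzyme of the pentose phosphate pathway, was at 47.7 RPKM in WT and at 77.4 in Kai1-/- PCs, and the malic enzyme gene Me1 had 13.4 and 10.3, and neither passed 2-fold. The higher genes were Idh2, the mitochondrial isocitrate dehydrogenase that yields NADPH, with 26.1 and 54.0, and Mthfd1 of folate metabolism, with 14.9 and 31.2. The lower gene was Aldh1l1, another folate enzyme that yields NADPH, with 4.28 and 0.506, a log2 ratio of -2.86. The calls of Idh2 and Mthfd1 were lost under each of the 5 other scalings.

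The glutathione peroxidases held the largest difference among all pathway genes with reads in both libraries. Gpx3, a secreted enzyme that removes peroxides with glutathione, was at 216 RPKM in WT PCs and at 7.54 in Kai1-/- PCs, 3.48% of the WT level, and 0.2% of all genes had a lower ratio. The other 4 peroxidases above the filter were not past 2-fold. Gpx1, the main cytosolic form, had 560 and 574, and Gpx4, which reduces lipid peroxides in membranes, had 1222 and 2124. Gpx2, the form of the gut and a known NRF2 target, was listed at 0 in both libraries.

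**Figure D4:**
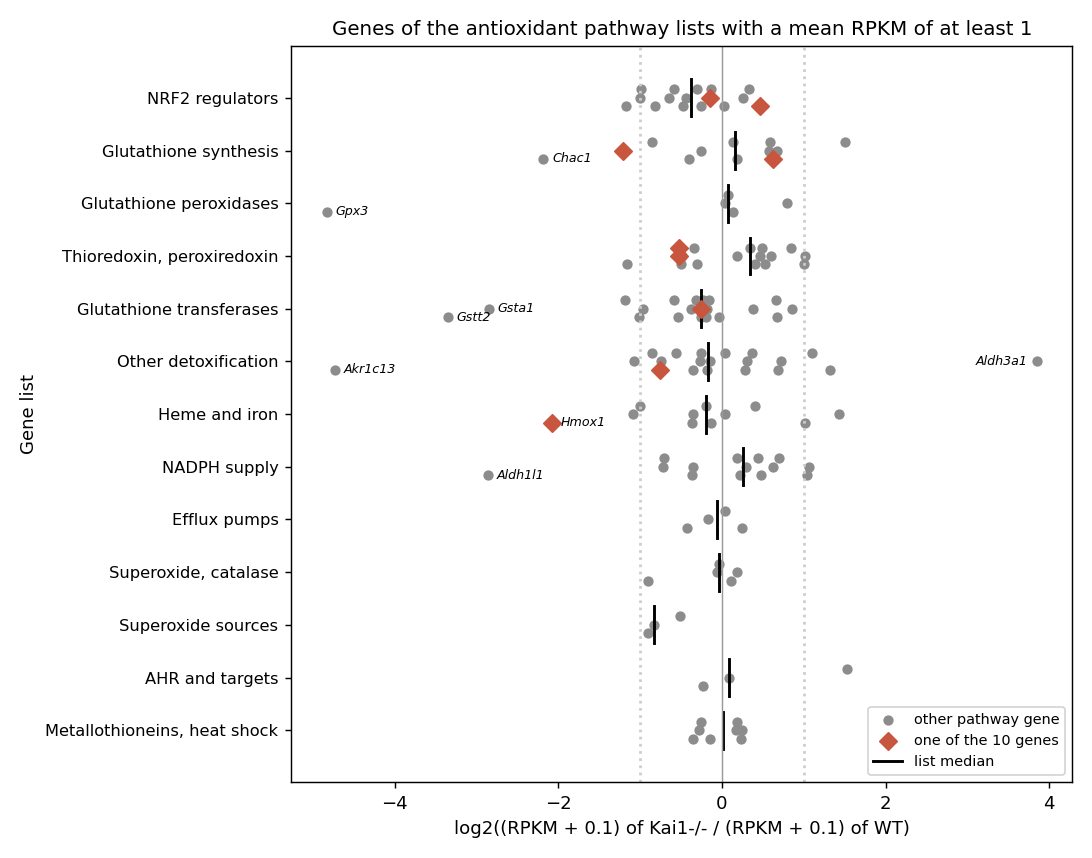
The log2 ratio of Kai1-/- to WT, with 0.1 RPKM added, for the pathway genes above the filter by list (1 library each), with red diamonds for the 10 genes, grey points for other pathway genes, a black bar for the list median and dotted lines at 2-fold. Gpx3 and Aldh3a1 stand farthest out among genes with reads in both libraries, and the place of Akr1c13, listed at 0 in Kai1-/-, depends on the added value.

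Across all 13 lists, 177 genes were named, 174 were found in the tables and 138 were above the filter. Of these 16 were more than 2-fold lower, or 11.6% against 7.81% of all genes, and 11 were higher, or 7.97% against 7.98%. Their median log2 ratio was -0.15. Leaving out the 9 genes of the NRF2 set, 129 pathway genes remained, with 14 lower, 11 higher and a median of -0.15. Of the 27 calls, 19 were kept under all 5 other scalings, which comprised all 16 lower calls and 3 of the 11 higher calls, those of Aldh3a1, Ggt7 and Ahr. Each of the 5 scalings lowers the Kai1-/- values, with log2 shifts between -0.50 and -0.08. No lower call could therefore be lost under them, and only the higher calls were put to a check.

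**Figure D5:**
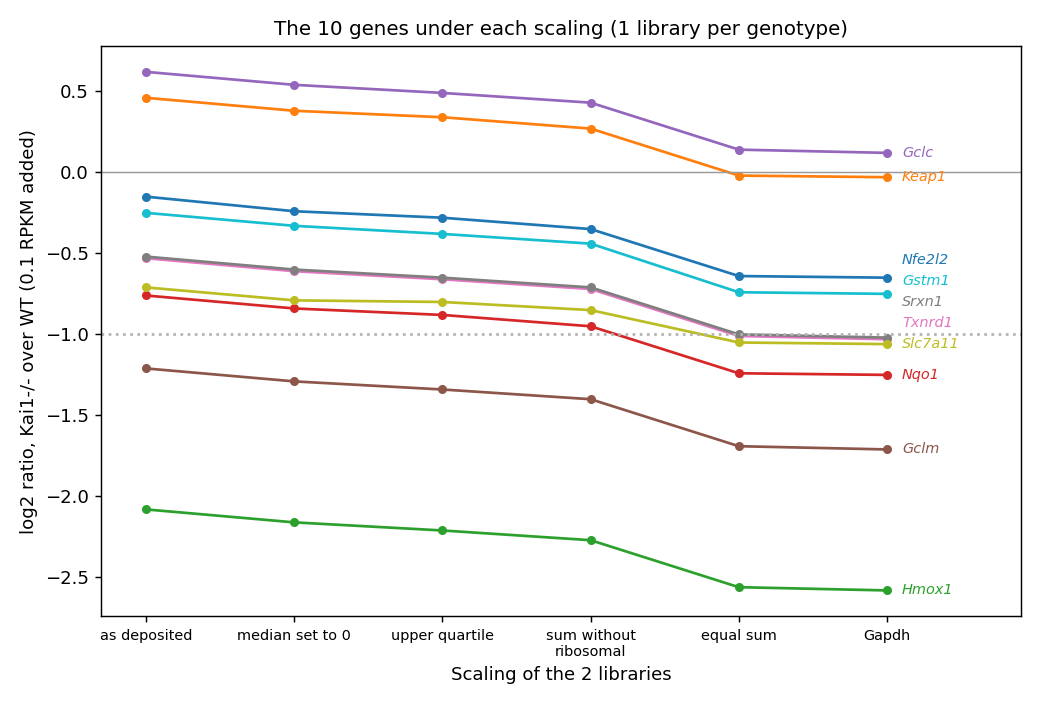
The log2 ratio of Kai1-/- to WT of the 10 genes under the values as deposited and 5 other scalings (1 library each), with a dotted line at 2-fold lower. All 5 other scalings shift the ratios down. Hmox1 and Gclm stayed below the line under each, Nqo1, Txnrd1, Srxn1 and Slc7a11, the last with a mean RPKM under 1, passed it with equal RPKM sums and with Gapdh, Gclc stayed above 0, and Keap1 was above 0 except with equal RPKM sums and Gapdh.

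The order of the 10 genes by ratio was the same under all 5 other scalings, since a scaling shifts nearly all ratios alike. From the lowest, with 0.1 RPKM added, the order was Hmox1, Gclm, Nqo1, Slc7a11, Txnrd1, Srxn1, Gstm1, Nfe2l2, Keap1 and Gclc. With 0.01 RPKM added instead, Slc7a11 at -0.88 came before Nqo1 at -0.76, and with 1 RPKM added it was at -0.24, after Gstm1 at -0.25. The counting intervals of Txnrd1 and Srxn1 overlapped, as did those of Gstm1 and Nfe2l2 and those of Keap1 and Gclc, so these neighbours were not separated by read depth. The interval of Slc7a11, from -1.35 to -0.45, covered those of Gclm, Nqo1 and Txnrd1, so its place in the order was not resolved at this depth.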

How the data were processed

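RNA sequencing of 1 WT and 1 Kai1-/- library of aortic PCs was analysed. The authors aligned the reads to mm9 (NCBI37) with TopHat2 2.0.9 and Bowtie, per the labels and the methods, and deposited 1 RPKM value per RefSeq gene and library. The tables had 20462 rows. Of these, 38 had no symbol and were dropped, and 153 symbols on several rows were averaged, which gave 20211. The log2 ratio of Kai1-/- to WT used 0.1 RPKM added to each value, and a call was a difference of more than 2-fold at a mean RPKM of at least 1. No test across genes was run with 1 library per genotype.

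Reads were estimated after the values were seen, from genes with 1 annotated transcript of over 800 bases, whose low values (477 and 301) were fitted to whole multiples of 1 read. With a fragment length of 200, 80.7% of them in each library lay within 0.15 of a whole read. The 95% intervals from these reads are approximate and cover counting error only. Positions came from GENCODE M1, promoters from RefSeq. The 10 genes, the lists and the markers were chosen from general knowledge with earlier results of these data known. The genes named were the 10, every list gene past 2-fold, and partners of the 10 set by name. Names added after their values were seen were further members or isoforms of named families (Maff, Mafk, Gstm5, Akr1c12, Hmox2, Gpx1, Gpx2 and Gpx4) and those of the closing observations. Alternatives were 5 scalings, added values of 1 and 0.01 RPKM, no filter or a mean of at least 5, and the highest row for repeated symbols. Fth1, Ugt1a6a and Ugt1a6b were not analysed here. The ratio and calls were tested on simulated data with counting error only and changes well past 2-fold. Calls near 2-fold and variation between cultures were not covered. Python 3.11.15, numpy 2.4.6, pandas 2.3.3, scipy 1.17.1 and matplotlib 3.10.9 were used.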

Additional observations from a re-analysis of the deposited data

How the results depend on the processing

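No paired analysis was possible because there is only 1 library on either side. As deposited, 2 of the 9 genes above the filter and 16 pathway genes were more than 2-fold lower and 11 pathway genes higher, with medians of -0.52 and -0.15. With equal RPKM sums, 5 of the 9 and 35 of the 138 pathway genes were lower and 3 higher, with medians of -1.0 and -0.64. Of all genes, 18.0% were then lower and 2.84% higher, against 7.81% and 7.98% as deposited. With Gapdh, these were 5, 37 and 3, with medians of -1.02 and -0.65, where 18.4% of all genes were lower and 2.76% higher. With equal sums without ribosomal protein genes, 5 pathway genes were higher, against 5.09% of all genes, with medians of -0.71 and -0.35. With equal upper quartiles 5 were higher, against 5.90%, with medians of -0.65 and -0.28. With the median set to 0, 6 pathway genes were higher, against 6.52% of all genes. With 1 RPKM added, 5 were higher, against 5.46% of all genes, and without a filter 25 were lower, against 9.29%. At an average of 5 RPKM or more, 7 were higher, against 7.84%, by construction with fewer genes kept. For the other differences, the cause was not tested. None of the 9 genes of the NRF2 set above the filter was more than 2-fold higher under any of these settings. The 5 scalings all lower the Kai1-/- values and the filters leave ratios unchanged, so no higher call could arise under them. The scalings placed the median of all genes between -0.41 and 0.00, against 0.08 as deposited. Of 80 values of the 10 genes under 8 alternatives, 43 stayed within the counting interval, 37 did not, 2 changed sign (Keap1 with equal sums and with Gapdh) and 8 crossed 2-fold (Nqo1, Txnrd1, Srxn1 and Slc7a11 under the same 2 scalings). Without replicates, depth bounds counting error only.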

Other observations

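Of 5 genes for the removal of superoxide and hydrogen peroxide by other routes, 0 passed 2-fold as deposited. Their median log2 ratio was -0.04 (-0.54 with scaling to Gapdh), against 0.08 (-0.41) for all genes. The cytosolic superoxide dismutase gene Sod1 had an RPKM of 1329 in WT and 1516 in Kai1-/- PCs, and Cat, which encodes catalase, had 19.2 and 10.2, a log2 ratio of -0.90 that passed 2-fold under 4 of the 5 other scalings, at -1.39 with Gapdh. Of 16 genes for sources of superoxide and peroxide, 3 were above the filter, and all 3 had ratios below 0 without passing 2-fold as deposited, with a median of -0.83. With scaling to Gapdh all 3 passed, with a median of -1.33, and with equal RPKM sums 2 did. Of all genes, 18.4% and 18.0% were more than 2-fold lower under these scalings. They were the NADPH oxidase subunit Cyba with 421 and 295, the xanthine dehydrogenase gene Xdh with 11.3 and 6.29, and the monoamine oxidase gene Maoa with 18.3 and 9.75. Cybb, the catalytic subunit of the phagocyte oxidase, was listed at 0 in both libraries. The summed level of 9 macrophage markers was 16.7 RPKM in WT and 4.47 in Kai1-/-, and their part in these values was not tested.

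The aryl hydrocarbon receptor gene Ahr was at 0.720 RPKM in WT and at 2.27 in Kai1-/- PCs, with a log2 ratio of 1.53. Its targets Cyp1a1 and Cyp1a2 were listed at 0 in both libraries, and Cyp1b1 had 37.5 and 32.0. The targets Ahrr, with 0.372 and 0.0743, and Tiparp, with 0.845 and 0.435, were lower in Kai1-/- PCs and below the filter. Of 8 metallothionein and heat shock genes above the filter, 0 passed 2-fold, and Mt1 had 3680 and 2887 RPKM and Mt2 had 1337 and 1117. None of the 4 efflux pump genes above the filter passed 2-fold. Genes of the ATF4 stress response, of which Chac1 and Slc7a11 are also members, included Trib3 with 32.5 and 8.68 and Ddit3 with 479 and 193. Asns of the same response had 160 and 86.0, and Atf4 itself had 353 and 289. They were named after their values were seen and are not a full list, so they do not describe that response as a whole.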
